A study of Mus musculus with 8 samples.

Results

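The Ifi200 cluster on mouse chromosome 1 holds a row of related genes of the PYHIN family, among them the DNA sensor Aim2. The 10 members described here were taken by symbol after the Ensembl identifiers of the count tables, 53465 genes in all, had been matched to GENCODE M21. In chromosome order they were Aim2, Ifi206, Ifi213, Ifi209, Ifi208, Ifi207, Ifi204, Mndal, Ifi203 and Ifi205, and they lay between bases 173350879 and 174031810 (GRCm38). RNA was measured in live single CD4+ CD8+ thymocytes, the double-positive stage of T cell development, sorted from thymi of C57BL/6J mice and of NOD/ShiLtJ (NOD) mice, which are inbred and prone to autoimmune diabetes. Neither strain carries an engineered allele or a treatment in the labels, and the sources used here give no age, sex or number of animals per library. Each strain had 4 libraries, which were summed by the B number of their titles into 2 samples per strain, called samples 1 and 2. The labels do not state that each came from its own animal. All p-values therefore rest on the spread between these samples, pooled in part over genes, and that spread may be technical.

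PYHIN proteins pair an N-terminal pyrin domain, which binds the pyrin domains of other proteins, with a C-terminal HIN domain, which binds DNA, although some members lack the HIN domain. AIM2 binds double-stranded DNA in the cytosol and recruits the adaptor ASC, encoded by Pycard, to form an inflammasome that activates caspase-1. The other members, many of them nuclear, are known as interferon-inducible regulators of transcription, growth and DNA sensing, and the family is larger in mice than in humans.

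The libraries held 8.527 to 15.702 M reads in genes in C57BL/6J and 23.533 to 30.371 M in NOD, so low levels were measured with less counting error in NOD. Levels are given as reads per 1000000 reads in genes, scaled by TMM factors (CPM), each as mean ± SD over the 2 summed samples of a strain (n = 2). All 13 marker genes of double-positive thymocytes were tested and none passed the test between the strains in edgeR (3 at an unadjusted p under 0.05) or in DESeq2. Their summed level ranged from 21400 to 24700 CPM over the C57BL/6J libraries and from 17000 to 19900 CPM over the NOD ones, with Rag1, a subunit of the V(D)J recombinase, as the most abundant (9000 ± 796 and 5900 ± 950.0 CPM, adjusted p = 0.217). Markers of macrophages and monocytes summed to 15.6 to 21.8 CPM in C57BL/6J and 24.3 to 38.5 CPM in NOD libraries, and those of dendritic cells to 23.1 to 34.5 and 41.2 to 57.7 CPM, so that both sums were higher in every NOD library. The most abundant dendritic cell marker, Cd74, the invariant chain of MHC class II, stood at 10.4 ± 1.22 and 18.7 ± 2.03 CPM, with every NOD library above every C57BL/6J library (edgeR adjusted p = 0.120), and of the 7 tested markers of that list edgeR called 0 (3 at an unadjusted p under 0.05, all higher in NOD) and DESeq2 called 1 higher. Granulocyte markers did not exceed 2.08 CPM in any library. The most abundant markers of the other lists were Ighm for B cells (346 and 298 CPM), Gzma for NK cells (17.9 and 20.9 CPM), Pecam1 for stroma (147 and 132 CPM), Hbb-bs for red cells (2.41 and 4.45 CPM) and S100a8 for granulocytes (0.374 and 0.0265 CPM). Neither edgeR nor DESeq2 called any of the 7 tested genes of B cells, 3 of NK cells, 4 of stroma and 4 of red cells (0, 1, 1 and 1 at an unadjusted p under 0.05 in edgeR), and no granulocyte gene had enough reads to be tested. In bulk RNA, fewer cells of a type and less RNA per cell cannot be told apart.

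Most of the members share a short promoter element. RefSeq promoter windows (GRCm38.p6, 250 bases before to 50 after each annotated start) were found for 9 of the 10 members, in 11 windows. The core of the interferon-stimulated response element, searched on both strands as GAAA, any 2 bases and GAAA again, occurred in 8 of these 11 windows, against 3.44% of all 32851 windows in the table. With 1 mismatch allowed it was in 10 of the 11, Aim2 and Ifi209 included, against 35.4% of all windows. These windows are not independent. Both windows of Mndal, which overlap, are among the 8, and those of Ifi206, Ifi213 and Ifi208 are near-copies. In Ifi206, Ifi213, Ifi208, Ifi207, Mndal and Ifi203 the match was the same 10 bases, and it lay 26 to 73 bases before the start. Ifi205 held a close form further upstream, and Ifi209 had the same letters but for its first base. The 30 bases around each site are shown 5′ to 3′ on the strand of the gene, with the 10 bases of the core in capitals.
Ifi206 (chr1:173491339-173491368, minus strand): tgtctctgagGAAATCGAAAgctatgaacc
Ifi213 (chr1:173599326-173599355, minus strand): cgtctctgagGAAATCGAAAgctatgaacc
Ifi208 (chr1:173673597-173673626, plus strand): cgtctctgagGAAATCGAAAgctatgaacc
Ifi209 (chr1:173630770-173630799, plus strand): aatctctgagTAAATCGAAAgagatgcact
Ifi207 (chr1:173741831-173741860, minus strand): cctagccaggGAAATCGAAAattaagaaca
Mndal (chr1:173880204-173880233, minus strand): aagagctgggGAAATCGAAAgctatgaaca
Ifi203 (chr1:173942508-173942537, minus strand): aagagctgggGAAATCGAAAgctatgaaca
Ifi205 (chr1:174031870-174031899, minus strand): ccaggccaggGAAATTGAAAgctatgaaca
The other window of Mndal held a match of the core on the opposite strand, and so did that of Ifi205 after its start. The other window of Ifi203 held none, also with 1 mismatch allowed. The window of Aim2 held no exact match, which says only that these letters are not in it. That window, bases 173420354 to 173420653, lies inside the counted gene and not at its start, base 173350879. The STAT element core, searched as TTCNNNGAA, was in none of the 11 windows and in 8.30% of all windows. These are matches of letters in the reference sequence, and no binding was measured.

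Of the 10 members, 3 were higher in NOD (Aim2, Ifi204 and Ifi203) and 4 were lower (Ifi206, Ifi213, Ifi209 and Ifi208) at a Benjamini-Hochberg adjusted p under 0.05 in the quasi-likelihood test of edgeR, fitted over all 17291 tested genes. Over all tested genes, 1.91% were called higher and 1.78% lower, 3.68% in all. Ifi207 and Mndal did not pass the test, and Ifi205 had too few reads to enter it. The processing notes name GRCm38, the C57BL/6J reference. How far NOD differences from it in sequence or gene copies altered these counts was not tested. The filter on low counts asked for about 0.280 CPM in 2 samples. Ifi213, Ifi207 and Ifi204 reached that level in both samples of only 1 strain, so they entered the test through the strain in which they were high, and the count of called members is a description. The median log2 fold change, NOD over C57BL/6J, of the 9 tested members was 0.09, and that of all tested genes was 0.02. The median size of the change without its sign was 2.38 for the tested members and 0.27 for all tested genes. All 4 libraries of one strain lay apart from all 4 of the other for the 7 called members, 3 with NOD above and 4 with NOD below. Of all tested genes, 17.1% were apart in this way, 8.14% with NOD above and 8.99% with NOD below.

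**Figure D1:**
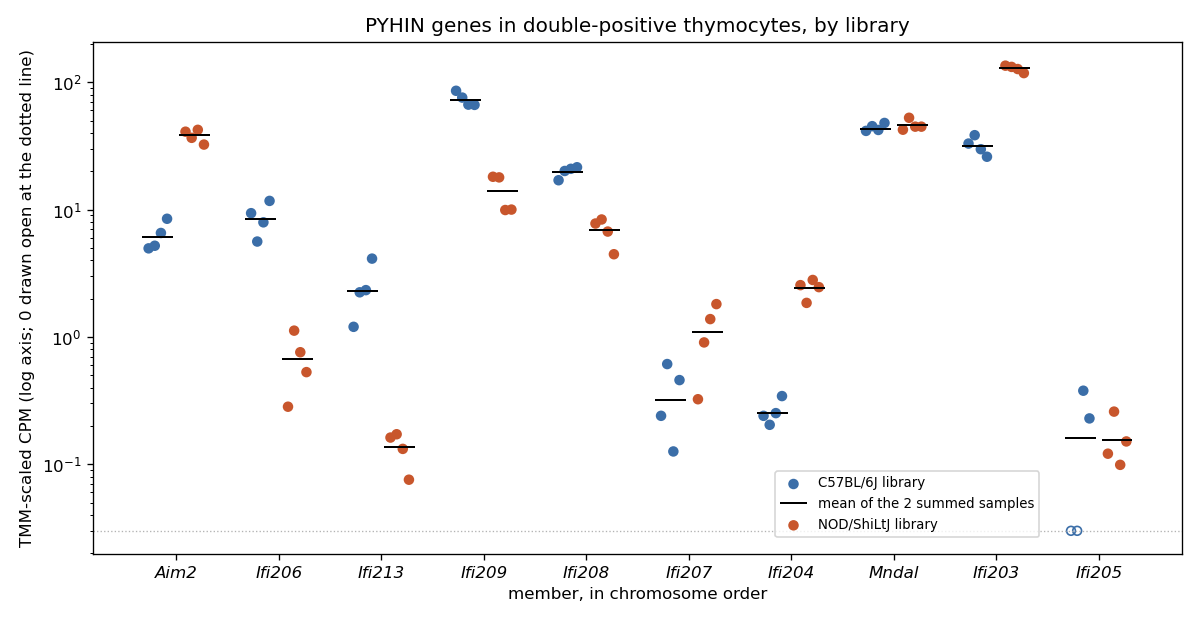
Level of each member in the 8 libraries, as TMM-scaled CPM on a log axis, with the mean of the 2 summed samples as a black line and libraries at 0 drawn open at the dotted line. The strains' libraries separate for 7 members and overlap for Ifi207, Mndal and Ifi205.

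Aim2 (ENSMUSG00000037860, chromosome 1, 173350879 to 173466040, plus strand), the cytosolic DNA sensor, rose in NOD. Its level was 4.99 and 7.21 CPM in C57BL/6J samples 1 and 2 and 39.0 and 37.7 CPM in NOD samples 1 and 2. Every NOD library, at 32.4 to 42.3 CPM, stood above every C57BL/6J library, at 4.96 to 8.47 CPM. The log2 fold change was 2.65 ± 0.25 (SE), a 6.28-fold difference (edgeR adjusted p = 0.000482). Aim2 had little sequence in common with other genes. Of its distinct 37-base words, a length close to that of 1 sequenced mate, 2.99% occurred in transcripts of any other gene, and none of its 75-base words did.

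Ifi204 (ENSMUSG00000073489, 173747293 to 173766943, minus strand), which encodes p204, the mouse protein most often likened to the human DNA sensor IFI16, also rose from a low level. It had 3, 2, 4 and 3 reads in the C57BL/6J libraries and 63, 43, 85 and 65 reads in the NOD libraries. In CPM, C57BL/6J samples 1 and 2 stood at 0.221 and 0.284, and NOD samples 1 and 2 at 2.22 and 2.65, so that the strains did not overlap. The log2 fold change was 3.25 ± 0.52 (edgeR adjusted p = 0.00945), and the ratio of the summed counts was 9.96 with a 95% counting interval of 5.60 to 19.5. Of the 37-base words of Ifi204, 28.7% occurred in other genes, the most in Ifi211 (17.1%). The part of shared reads in its low counts was not tested. Ifi204 lost its call when C57BL/6J sample 1 was left out (adjusted p = 0.0953), when C57BL/6J sample 2 was left out (0.0519) and when the libraries of T number 2 stood alone (0.0832).

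Aim2 and Ifi204 are also known from macrophages. Of 11 tested markers of macrophages and monocytes, edgeR called 1 higher and 0 lower in NOD, and DESeq2 called 3 higher and 0 lower. At an unadjusted p under 0.05 in edgeR, 3 were higher and 0 lower. The median log2 fold change of the list was 0.29, and 9 of the 11 values were positive. Csf1r, the receptor of macrophage colony-stimulating factor, rose from 0.643 ± 0.278 to 3.56 ± 0.366 CPM (log2 fold change 2.47 ± 0.48, edgeR adjusted p = 0.0233). Lyz2, lysozyme, stood at 3.85 ± 0.862 and 9.55 ± 3.43 CPM (adjusted p = 0.109), and Cd14 had 0 reads in every library. The part of these cells and of dendritic cells in the differences of Aim2 and Ifi204 was not tested.

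Ifi206, Ifi208 and Ifi213, which are near-copies of each other at the start of the gene, all fell in NOD. Ifi213 and Ifi208 also have the older names Pydc4 and Pydc3, for pyrin domain containing. The aligned parts of their promoter windows were 98.5% to 98.9% identical pair by pair. A stretch of 150 bases with the core near its end is shown for the 3 genes because it carries this likeness. Capitals mark the 3 positions at which the genes differ.
Ifi206 (chr1:173491329-173491478, minus strand): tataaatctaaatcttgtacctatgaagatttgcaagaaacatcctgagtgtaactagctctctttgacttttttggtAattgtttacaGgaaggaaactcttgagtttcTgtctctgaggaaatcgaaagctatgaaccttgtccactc
Ifi213 (chr1:173599316-173599465, minus strand): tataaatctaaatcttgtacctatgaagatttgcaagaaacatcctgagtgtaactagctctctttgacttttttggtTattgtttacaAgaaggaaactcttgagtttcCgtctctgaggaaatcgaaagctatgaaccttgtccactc
Ifi208 (chr1:173673487-173673636, plus strand): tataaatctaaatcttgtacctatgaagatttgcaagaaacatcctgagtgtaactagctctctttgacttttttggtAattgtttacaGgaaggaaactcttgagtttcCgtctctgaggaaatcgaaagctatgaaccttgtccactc

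Ifi206 (ENSMUSG00000037849, 173468485 to 173491041, minus strand) stood at 7.60 and 9.24 CPM in C57BL/6J samples 1 and 2 and at 0.692 and 0.653 CPM in NOD samples 1 and 2. Its log2 fold change was -3.64 ± 0.39, 12.5-fold lower in NOD (edgeR adjusted p = 0.000976). The lowest C57BL/6J library held 5.61 CPM and the highest NOD library 1.12 CPM, so the strains were well apart.

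Ifi213 (ENSMUSG00000073491, 173566283 to 173599274, minus strand) had the steepest fall of the tested members in the main fit. With the T number 1 libraries alone, its log2 fold change was -3.56 and that of Ifi206 was -4.01. It had 15, 22, 37 and 36 reads in the C57BL/6J libraries and 4, 4, 4 and 2 reads in the NOD libraries, although the NOD libraries were deeper. In CPM this was 1.63 and 2.96 in C57BL/6J samples 1 and 2 against 0.168 and 0.106 in NOD samples 1 and 2. The log2 fold change was -4.06 ± 0.60 (edgeR adjusted p = 0.00577), and the ratio of summed counts was 0.0594 with a 95% counting interval of 0.0315 to 0.104.

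Ifi208 (ENSMUSG00000066677, 173673675 to 173698395, plus strand) was the most abundant of the 3 and fell least. It stood at 18.1 and 21 CPM in C57BL/6J samples 1 and 2 and at 8.09 and 5.68 CPM in NOD samples 1 and 2, with no overlap between libraries. On the log2 scale the change was -1.51 ± 0.28, 2.84-fold lower in NOD (edgeR adjusted p = 0.0189). Leaving out C57BL/6J sample 1 ended the call (adjusted p = 0.0861), and so did leaving out C57BL/6J sample 2 (0.110). Since these genes share sequence, reads of one can be counted for another or dropped. Of the 37-base words of Ifi206, 32.3% occurred in other genes; the share was 22.3% for Ifi213 and 29.1% for Ifi208, and the largest single overlap was that of Ifi208 with Ifi213 (25.9% of the Ifi208 words). Summed, the 3 genes held 30.3 ± 4.20 CPM in C57BL/6J, against 7.69 ± 1.78 CPM for NOD, 3.93 times less, and the libraries did not overlap. The sum leaves out dropped reads and reads counted for other genes, such as Gm18752, which holds 12.8% of the Ifi206 words. The part of such reads in these values was not tested.

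Ifi209 (ENSMUSG00000043263, 173630917 to 173647928, plus strand), also called Pyhin1, was the most abundant member in C57BL/6J and fell in NOD. It stood at 80.1 and 66.4 CPM in C57BL/6J samples 1 and 2 and at 18.1 and 9.98 CPM in NOD samples 1 and 2. The lowest C57BL/6J library, at 66.4 CPM, was far above the highest NOD library, at 18.1 CPM. This was a log2 fold change of -2.38 ± 0.29, 5.22-fold lower in NOD (edgeR adjusted p = 0.00306). Ifi209 shared 41.5% of its 37-base words with Ifi214, another PYHIN gene of the cluster, which had 29 reads in C57BL/6J and 322 in NOD (0.597 ± 0.532 and 3.17 ± 1.39 CPM, log2 fold change 2.38 ± 0.66, edgeR adjusted p = 0.104). The 2 genes together held 73.8 ± 9.15 CPM in C57BL/6J, against 17.2 ± 7.14 CPM for NOD. Any reads dropped because they fit both genes are not in this sum, and their part was not tested.

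Ifi203 (ENSMUSG00000039997, 173920407 to 173942672, minus strand), a nuclear member, rose in NOD to become the most abundant of the family. It stood at 34.8 and 28.4 CPM in C57BL/6J samples 1 and 2 and at 134 and 123 CPM in NOD samples 1 and 2. All NOD libraries, at 118 to 135 CPM, lay above all C57BL/6J libraries, at 26.0 to 38.4 CPM. The log2 fold change was 2.03 ± 0.18, a 4.08-fold difference (edgeR adjusted p = 0.000360).

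Mndal (ENSMUSG00000090272, 173849126 to 173942491, minus strand), named for its likeness to the myeloid nuclear differentiation antigen, did not pass the test. It stood at 42.4 and 44.1 CPM in C57BL/6J samples 1 and 2 and at 47.6 and 44.9 CPM in NOD samples 1 and 2, and the libraries overlapped. Its log2 fold change was 0.09 ± 0.17 (edgeR adjusted p = 0.901). The RefSeq promoter windows of Mndal lay between bases 173879909 and 173880437. They are thus inside the counted gene and not at its start, base 173942491. The window of Ifi203 that holds the core and that of Mndal were 94.3% identical over 299 aligned columns, and the 30 bases around the core, shown above, are the same in both. Of the 37-base words of Mndal, 7.77% occurred in Ifi203 and 4.18% of those of Ifi203 in Mndal. The spans of the 2 genes overlap, and 37 exon bases are common to both. Reads that fell in several genes at once were set apart in the tables and came to 1.525 to 1.979 per 100 reads in genes for C57BL/6J and 2.609 to 6.172 for NOD. Their part in the values of Mndal and Ifi203 was not tested.

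Ifi207 and Ifi205 were barely present in either strain. Ifi207 (ENSMUSG00000073490, 173723427 to 173741747, minus strand) had 15 reads in C57BL/6J and 119 in NOD, at 0.398 and 0.243 CPM in C57BL/6J samples 1 and 2 and 0.608 and 1.59 CPM in NOD samples 1 and 2. The libraries overlapped, and the log2 fold change of 1.78 ± 0.67 did not pass the test (edgeR adjusted p = 0.262). It was 0.92 without NOD sample 2 (adjusted p = 0.691), and without NOD sample 1 it was 2.30 and passed (adjusted p = 0.0376). Ifi205 (ENSMUSG00000054203, 174011998 to 174031810, minus strand) had 0, 0, 6 and 2 reads in the C57BL/6J libraries and 3, 6, 3 and 4 reads in the NOD libraries. The ratio of these counts per read was 0.934 with a 95% counting interval of 0.377 to 2.52, so a difference within these bounds was not detectable at this depth. These intervals treat each read as independent and leave out the spread between samples. No molecular identifiers are mentioned for the reads, so the intervals may be too narrow.

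**Figure D2:**
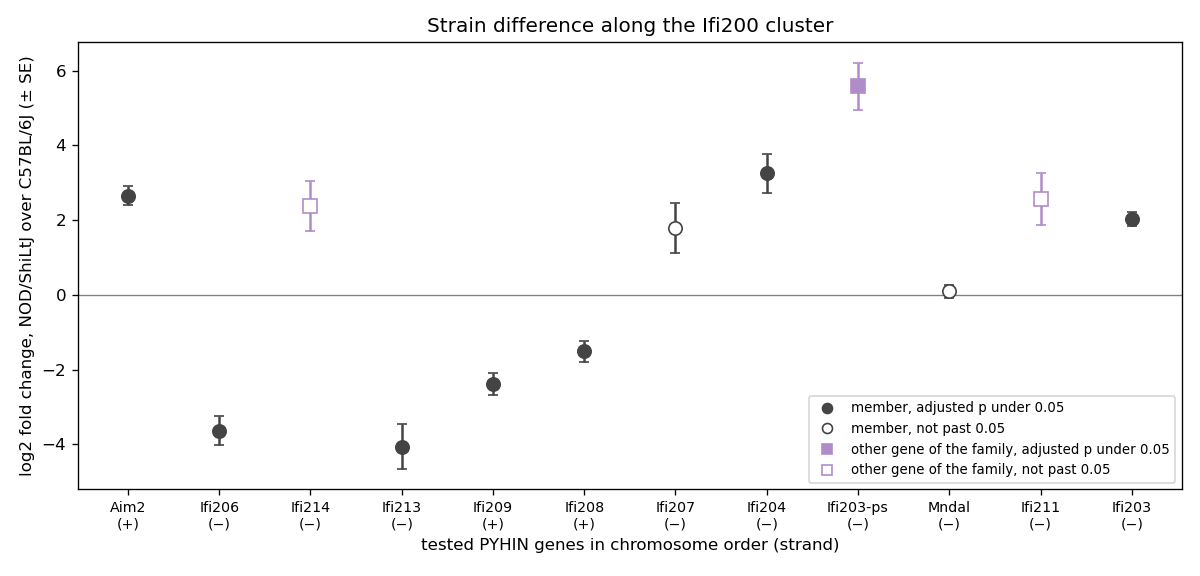
Log2 fold change, NOD/ShiLtJ over C57BL/6J, with its SE for the 9 tested members (circles) and 3 other tested PYHIN genes (squares) in chromosome order, filled where the adjusted p was under 0.05. The 4 members that fell follow each other from Ifi206 to Ifi208, and all later tested members have values above 0, Mndal at 0.09.

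Along the chromosome, the 4 members that fell were neighbours in the list, with Aim2 before them and the 3 genes Ifi207, Ifi204 and Mndal between them and Ifi203. They lay on both strands, Ifi206 and Ifi213 on the minus strand and Ifi209 and Ifi208 on the plus strand. Ifi214, which lies between Ifi206 and Ifi213, had a positive log2 fold change but was not called. Ifi203-ps and Ifi211, which are not members but lie among the later ones, also had positive values. Ifi214 and Ifi211 reached the level of the filter in both samples of NOD only, which favoured a positive value. Ifi203-ps, a pseudogene with which Ifi203 shared 13.4% of its 37-base words, rose (3 reads in C57BL/6J and 331 in NOD, log2 fold change 5.58 ± 0.63, edgeR adjusted p = 0.00133), and it entered the test only through its level in NOD. Ifi203 and Ifi203-ps together held 31.7 ± 4.52 CPM in C57BL/6J, against 132 ± 7.90 CPM for NOD. Ifi211, which shares 37-base words with Ifi204, Mndal and Ifi205, stood at 0.129 ± 0.0676 and 0.774 ± 0.0276 CPM (adjusted p = 0.0886). Ifi202b, chosen here after its values were seen, had 0 reads in every C57BL/6J library and 4, 8, 20 and 26 in the NOD libraries. It did not enter the test, and its NOD samples 1 and 2 stood at 0.252 and 0.811 CPM.

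**Figure D3:**
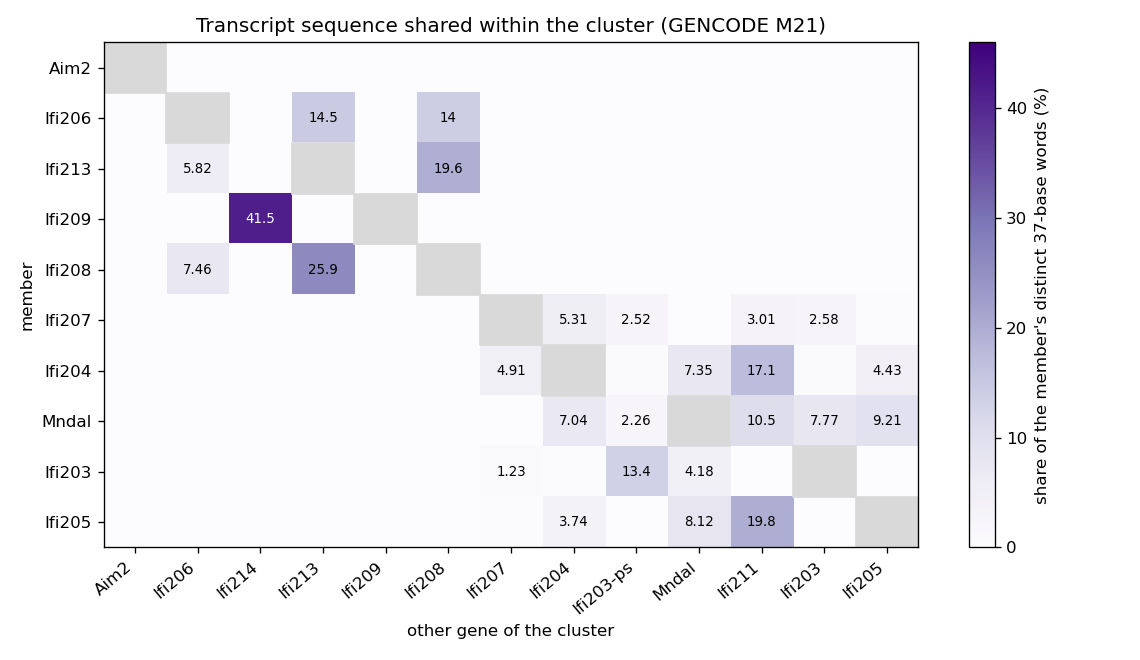
Share of each member's distinct 37-base transcript words (rows) found in the transcripts of another gene of the cluster (columns), in percent, with values of 1 or more printed and the gene itself in grey. Ifi206, Ifi213 and Ifi208 share words with each other, Ifi209 with Ifi214 (41.5%), and the members from Ifi207 onward among themselves.

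Of the 71 other annotated genes within 1000000 bases on either side of the cluster or inside it, 11 were tested, and 8 of these lay outside the span of the members. Of the 8 protein-coding genes among the 11, Fmn2, a formin that nucleates actin filaments, was the only one called (4 reads in C57BL/6J and 104 in NOD, log2 fold change 3.52 ± 0.69, edgeR adjusted p = 0.0239), and it too entered the test only through its level in NOD. The most abundant of them, Pigm, stood at 68.0 ± 6.03 and 92.3 ± 7.61 CPM (adjusted p = 0.275).

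The makeup of the family differed between the strains more than its total. The 10 members together held 190.0 and 180.0 CPM in C57BL/6J samples 1 and 2 and 251 and 227 CPM in NOD samples 1 and 2. Ifi209 took 42.1% and 36.8% of the members' reads in C57BL/6J samples 1 and 2 and 7.22% and 4.41% in NOD samples 1 and 2. Ifi203 took 18.3% and 15.7% in C57BL/6J against 53.5% and 54.4% in NOD. Aim2 went from 2.62% and 4.0% to 15.5% and 16.7%, while Mndal took 21.5% to 25.6% in the C57BL/6J libraries and less, 17.1% to 20.9%, in the NOD ones.

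Levels were also taken per kb of merged exon length, which adjusts for length but not for sequence shared between genes. On this scale Ifi209 led in C57BL/6J at 20.6 ± 2.73 CPM per kb. Mndal followed at 11.9 ± 0.330, Ifi203 at 4.71 ± 0.678, Ifi208 at 3.72 ± 0.399, Ifi206 at 2.76 ± 0.381 and Aim2 at 1.74 ± 0.449 CPM per kb. Below them came Ifi213 at 0.336 ± 0.137 CPM per kb and, lowest, Ifi207, Ifi204 and Ifi205. The intervals of mean ± SD of Ifi203 and Ifi208 overlapped, as did those of neighbours among the last 3 genes.

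In NOD, Ifi203 led at 19.2 ± 1.17 CPM per kb, followed by Mndal at 12.7 ± 0.533, Aim2 at 11.0 ± 0.256, Ifi209 at 3.96 ± 1.62 and Ifi208 at 1.31 ± 0.324 CPM per kb. Ifi204 stood at 0.683 ± 0.0841 CPM per kb. Ifi207 (0.321 ± 0.202) and Ifi206 (0.220 ± 0.00907) did not differ beyond their spread, and neither did Ifi205 and Ifi213, the lowest.

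**Figure D4:**
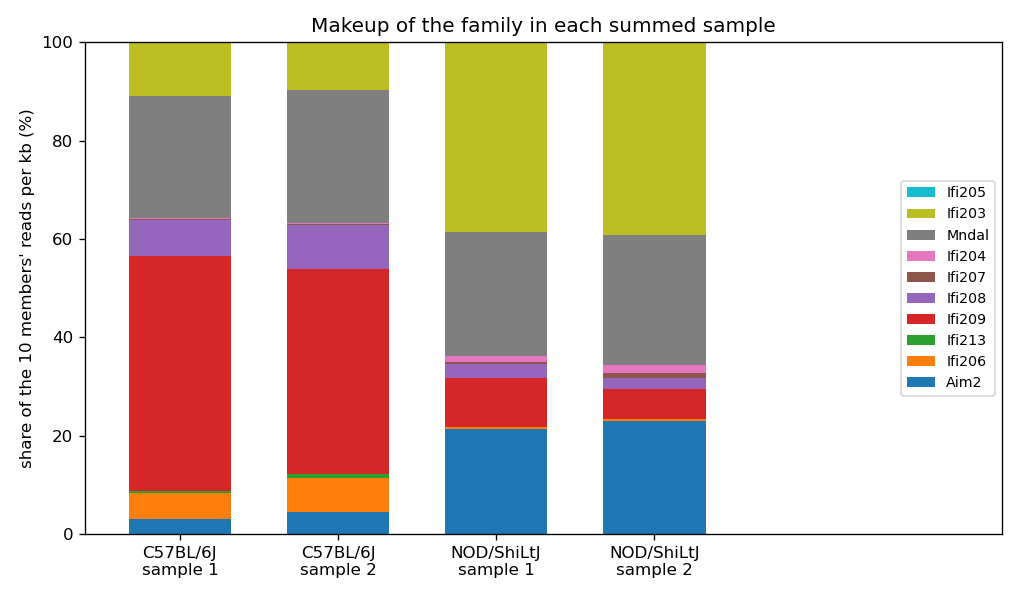
Share of the 10 members' reads per kb of merged exon length held by each member in the 4 summed samples, in percent; the bars add to 100. Ifi209 is the largest block in both C57BL/6J samples (47.8% and 41.7%) and Ifi203 in both NOD samples (38.5% and 39.2%).

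Of 24 tested genes of the Aim2 inflammasome and cytosolic DNA sensing, 1 was higher and 0 were lower in NOD, near the 3.68% called over all tested genes, and the median log2 fold change was -0.02. Samhd1, a nucleotide hydrolase that limits cytosolic DNA, rose from 4.98 ± 1.55 to 15.4 ± 5.47 CPM (log2 fold change 1.63 ± 0.36, edgeR adjusted p = 0.0410). Pycard, the adaptor that AIM2 recruits, stood at 130.0 and 102 CPM in C57BL/6J samples 1 and 2 and 132 and 111 CPM in NOD samples 1 and 2 (adjusted p = 0.942), and Gsdmd, the pore former cut by caspase-1, at 20.3 ± 2.58 and 22.7 ± 2.98 CPM (adjusted p = 0.869). Casp1 itself had 4 reads in C57BL/6J and 33 in NOD and was not tested, nor were Il1b (4 and 2 reads) and Il18 (13 and 8 reads). The DNA sensor Cgas and its adaptor Tmem173 (STING) stood at 3.70 ± 0.195 and 3.23 ± 1.25 CPM and at 6.04 ± 3.27 and 6.43 ± 0.707 CPM. The most abundant genes of the list were Xrcc6, the Ku70 subunit (454 ± 45.0 and 380 ± 20.8 CPM), and Hmgb1 (407 ± 41.3 and 299 ± 26.7 CPM), neither of which passed the test.

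None of 16 tested interferon receptors and signalling genes passed the test in edgeR (1 at an unadjusted p under 0.05, lower in NOD) or in DESeq2, and their median log2 fold change was -0.01. Jak1, a kinase bound to interferon receptors, stood at 571 ± 14.5 and 526 ± 27.0 CPM (adjusted p = 0.862), and Ifngr1, a subunit of the interferon gamma receptor, at 481 ± 163 and 417 ± 3.96 CPM (adjusted p = 0.830). Of 43 tested interferon-inducible genes outside the cluster, 0 were higher and 2 lower, also near the 3.68% called over all tested genes. At an unadjusted p under 0.05 in edgeR, 3 were higher and 7 lower in NOD. The median log2 fold change of the list was -0.09. All 48 listed genes summed to 1860 to 2400 CPM in C57BL/6J libraries and to 1250 to 1800 CPM in NOD ones, lower in every NOD library. Epsti1 fell from 230.0 ± 65.1 to 19.6 ± 2.87 CPM (log2 fold change -3.55 ± 0.24, edgeR adjusted p = 7.34e-05). Igtp, an interferon-inducible GTPase, fell from 86.0 ± 4.69 to 46.2 ± 0.391 CPM (log2 fold change -0.90 ± 0.16, edgeR adjusted p = 0.0171). The most abundant, Ly6e and Sp100, did not pass. Ly6e stood at 735 and 611 CPM in C57BL/6J samples 1 and 2 and 278 and 632 CPM in NOD samples 1 and 2, and Sp100 at 273 ± 0.609 and 256 ± 18.6 CPM.

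The patterns most like that of Ifi203, the most abundant member over the 4 summed samples, belonged to genes on other chromosomes. Among 11790 other tested protein-coding genes, the highest Pearson correlations of log2(CPM + 1) over the 8 libraries were those of Acpp on chromosome 9 (r = 0.9984), Afdn on chromosome 17 (0.9942) and Itga6 on chromosome 2 (0.9940). The points share the libraries and the strain difference, so these values describe mainly a rise between the strains. Acpp stood at 8.71 ± 1.37 and 47.5 ± 0.854 CPM, Afdn at 4.47 ± 0.929 and 38.5 ± 1.77 CPM and Itga6 at 122 ± 6.83 and 409 ± 5.07 CPM.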

How the data were processed

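For each library the authors deposited raw counts, whole numbers by Ensembl gene. The submitters' processing notes name GRCm38, which is the C57BL/6J reference, the aligner STAR 2.5.0a and the counter HTSeq 0.6.1. The annotation release and the strand setting are not given in the sources used here. Reads outside genes (39.98% to 59.08% of those listed) and reads in several genes were left out. Of 53465 genes, 53274 had an identifier in GENCODE M21.

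The 8 libraries were summed by strain and B number. Counts were filtered (filterByExpr), TMM-scaled and tested with edgeR 4.0.16 in R 4.3.3, by a robust two-sided quasi-likelihood F-test on strain alone with 2 residual degrees of freedom. The median prior degrees of freedom, drawn from the spread over all tested genes, were 7.15. The procedure was checked on simulated data. DESeq2 1.42.0 and limma 3.58.1 served among 12 alternatives. Words of 37 bases were compared over M21 transcripts. Promoters were aligned locally with Biopython 1.88.

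All 10 members were named. Of each gene list, every called gene and the 2 most abundant tested genes were named, of each marker list the most abundant gene, and of the neighbours every called protein-coding gene. Other neighbours and pathway genes were chosen after their values were seen. The members and lists were chosen with earlier results of these data known. A planned comparison of proteins was not run. Some values of the gene lists are not reported here.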

Additional observations from a re-analysis of the deposited data

Results flagged for a closer look

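Reads assigned to no single gene because they fell in several genes at once, which enter none of the comparisons, were more frequent in NOD. The lowest NOD library held 2.609 such reads per 100 reads in genes, above the highest C57BL/6J library at 1.979. The tables do not say which genes these reads touched. In each strain, the 4 libraries were also searched for a library far from the other three in the level of each member (20 groups, by Dixon's ratio at its 95% critical value); none was found.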

How the results depend on the processing

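Under the 12 alternatives, or 11 for Ifi207, which did not enter the test with the T number 1 libraries alone, no tested member changed the sign of its difference. Aim2 (log2 fold change 2.35 to 2.93), Ifi203 (1.88 to 2.18), Ifi206 (-4.01 to -3.37), Ifi209 (-2.87 to -2.02) and Ifi213 (-4.61 to -3.56) passed the test in every alternative, and Mndal (0.05 to 0.14) in none. With the replicate block, no member's call changed (Ifi208 -1.52, adjusted p = 0.0371; Ifi204 3.26, adjusted p = 0.0164). The labels do not say that B numbers pair the strains, and the deviations of same-numbered samples from their strain means correlated at -0.17 across genes. The T number 2 libraries alone gave Ifi204 2.97 without a call. Leaving out 1 summed sample, the lone sample of a strain being assumed to vary like the others, gave 3.08 to 3.44 for Ifi204, -1.78 to -1.28 for Ifi208 and 0.92 to 2.30 for Ifi207. Over all genes, 330 were called higher and 307 lower; without the filter on low counts it was 646 and 542, with the T number 2 libraries alone 166 and 176, and with 1 summed sample left out 124 to 667 and 132 to 722. In each case the cause was not tested. With 75-base words in place of 37, the shared share fell for all 10 members, to 0 for Aim2 and 23.1% for Ifi209. With 1 mismatch allowed, the STAT core was in all 11 windows and in 71.4% of all windows. Depth limits Ifi205, Ifi207 and Ifi204 in C57BL/6J, and Ifi213 had few reads in NOD.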
